A study of Homo sapiens with 12 samples.

Results

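The genes described here encode parts of the mitochondrial ribosome, of the machinery that brings proteins into mitochondria, and of the carriers of the inner membrane. They were chosen by name: MRPL or MRPS followed by a digit, TOMM, TIMM, GRPEL and SLC25A, plus OXA1L, AURKAIP1 and SMDT1, with pseudogenes left out. The rule found 40 of the 1676 genes in the authors' deposited table. By role, 15 belong to the large and 8 to the small subunit of the mitochondrial ribosome, 4 to the translocase of the outer membrane, 5 to chaperones, matrix import and membrane insertion, and 8 to the carriers together with 1 subunit of the calcium uniporter. The table holds a selection of genes made by the authors: GENCODE v29 annotates 157 genes that fit the name rule, and those without a row are not analysed here.

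Mitochondria keep a small genome that encodes a few subunits of the respiratory chain, and a ribosome of their own translates these. All proteins of that ribosome, and nearly all other mitochondrial proteins, are made in the cytosol and pass through the TOM complex of the outer membrane. Small TIM proteins escort hydrophobic precursors across the intermembrane space, a motor with the chaperone HSPA9 pulls precursors into the matrix, and OXA1L inserts proteins into the inner membrane. SLC25 carriers then exchange nucleotides, phosphate and metabolites across that membrane.

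The cells were SH-SY5Y, an established neuroblastoma line that grew from a bone metastasis and often stands in for neurons. They had been transfected with a construct for tau, a protein that binds microtubules, and their polyadenylated RNA was taken 24 h later. Tau-S199E carries a glutamate in place of serine, a mimic of phosphorylation, Tau-K174Q carries a glutamine in place of lysine, a mimic of acetylation, Tau-K174Q-S199E carries both, and Tau-WT, the wild-type protein, is the study's baseline. Each construct had 3 libraries, 12 in all, made from 400 ng of RNA with a kit that reads near the 3′ end of transcripts. The promoter of the constructs, the share of cells transfected and whether the libraries came from separate cultures are not stated. The p-values therefore measure no more than the spread between libraries, which may be technical.

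The authors deposited standardised library values, with a mean of 0 and an SD of 1 for every gene across the 12 libraries. All values and differences are thus in SD units of the gene itself, not in expression level or fold change, and cannot be compared between genes as levels. The depth of the libraries is unknown. In bulk RNA, fewer cells of a type and less RNA per cell cannot be told apart. Library 12 of Tau-S199E stood farthest from Tau-WT of its construct in 85.5% of the table's genes. Library 18 of Tau-K174Q-S199E stood nearest to Tau-S199E in 88.6%. Counts of called members are therefore also given without these libraries, but not every single gene is. MAPT, the gene for tau, had standardised values from -1.44 to -0.15 in Tau-S199E, from -0.57 to -0.49 in Tau-K174Q, from -0.59 to 2.54 in Tau-K174Q-S199E and from 0.00 to 0.85 in Tau-WT. Whether the constructs hold the 3′ end that the kit reads is not stated, so MAPT does not check the labels. None of the 15 noradrenergic neuroblast markers that were looked up was among the genes analysed (0 of 15), so the line's identity was not checked.

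Promoter sequence is shown for 6 members because members that rose and members that fell carry the same letters upstream of their start. The lines below give the 150 bases before the start in RefSeq (GRCh38.p14), 5′ to 3′ on the gene's own strand. Capitals mark CCGGAAGT, a motif of ETS factors, or the NRF1 motif, GCGCA and GCGC with any base between them, on either strand; these factors are known as regulators of nuclear genes for mitochondrial proteins. TOMM20, OXA1L and MRPS34 rose with Tau-S199E, whereas SLC25A11, GRPEL2 and MRPL12 fell, and MRPL12 holds neither motif in this window. The gene bounds of GENCODE v29 reach into all 6 windows, so a start farther upstream is also annotated.
TOMM20: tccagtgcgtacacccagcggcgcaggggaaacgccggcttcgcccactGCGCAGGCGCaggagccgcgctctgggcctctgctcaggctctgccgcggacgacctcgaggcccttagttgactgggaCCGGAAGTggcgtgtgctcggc
OXA1L: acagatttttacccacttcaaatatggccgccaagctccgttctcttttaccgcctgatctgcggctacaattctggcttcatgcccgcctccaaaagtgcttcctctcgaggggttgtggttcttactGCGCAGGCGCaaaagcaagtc
MRPS34: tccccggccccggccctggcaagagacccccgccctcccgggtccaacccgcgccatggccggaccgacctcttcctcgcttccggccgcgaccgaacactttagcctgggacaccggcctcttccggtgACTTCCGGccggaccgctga
SLC25A11: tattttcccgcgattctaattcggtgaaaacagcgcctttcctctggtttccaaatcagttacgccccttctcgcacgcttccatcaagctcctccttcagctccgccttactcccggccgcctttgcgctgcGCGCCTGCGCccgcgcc
GRPEL2: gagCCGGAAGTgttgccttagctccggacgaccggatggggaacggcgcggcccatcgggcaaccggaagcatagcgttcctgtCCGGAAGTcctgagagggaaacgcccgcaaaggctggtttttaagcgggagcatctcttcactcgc
MRPL12: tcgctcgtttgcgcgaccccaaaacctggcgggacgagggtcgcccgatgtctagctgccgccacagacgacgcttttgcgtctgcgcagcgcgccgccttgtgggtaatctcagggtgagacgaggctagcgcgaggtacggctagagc

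The windows lie at chr1:235128838-235128987 on the minus strand for TOMM20, chr14:22766538-22766687 on the plus strand for OXA1L and chr16:1773135-1773284 on the minus strand for MRPS34. They lie at chr17:4940047-4940196 on the minus strand for SLC25A11, chr5:149345349-149345498 on the plus strand for GRPEL2 and chr17:81703217-81703366 on the plus strand for MRPL12. RefSeq gave a window for 35 of the 40 members, each running from 250 bases before to 50 after the start. CCGGAAGT occurred on either strand in 9 of these 35 windows (25.7%), in 11.4% of the windows of the table's genes and in 4.44% of all 27305 windows. The NRF1 motif occurred in 7 (20%), against 14.8% of the table's windows and 6.28% of all windows. By direction, CCGGAAGT was in 26.1% of the 23 windows of members higher with Tau-S199E than with Tau-WT and in 25% of the 12 windows of members lower, and the NRF1 motif in 21.7% and 16.7%. AAGATGGCG, a motif of YY1, occurred in 4 member windows (11.4%), in 5.3% of the table's windows and in 1.85% of all windows; by direction it was in 2 of 23 and 2 of 12. CACGTG, an E-box, occurred in 3 member windows (8.57%), in 10.1% of the table's windows and in 7.43% of all windows, and its 3 windows were all among the 23 of members higher (0 of 12 lower). A match is a description of the letters and not evidence of binding.

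**Figure D1:**
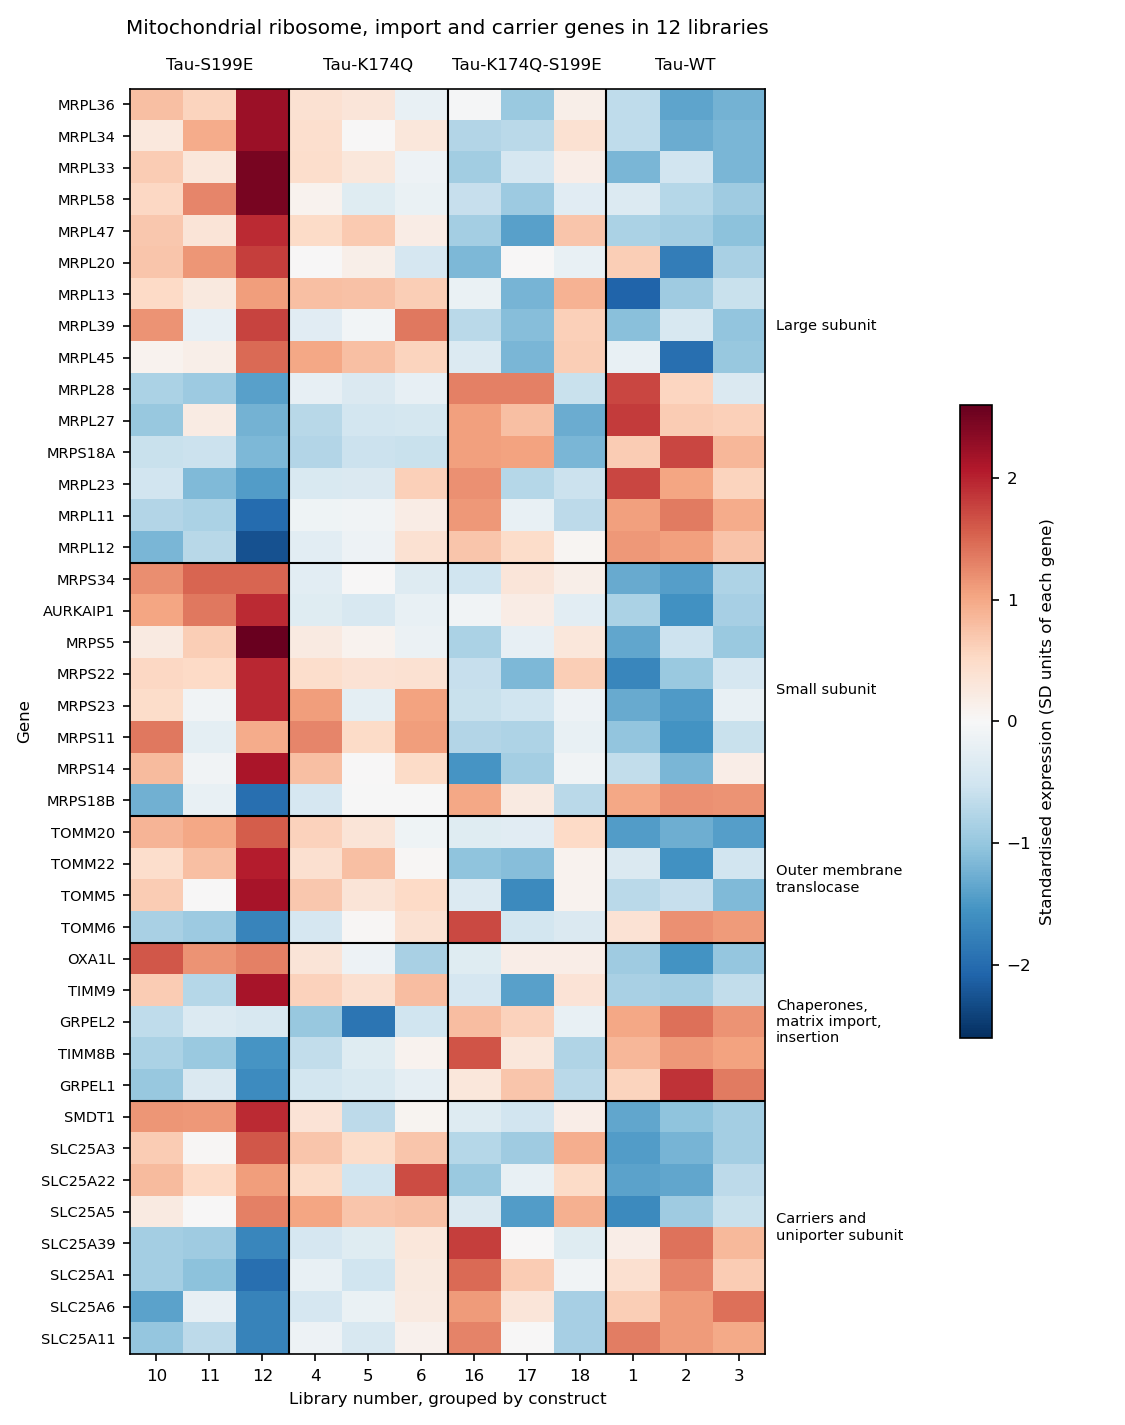
Standardised expression (colour, SD units of each gene) of the 40 members, 1 row a gene and 1 column a library, with libraries grouped by construct and genes by role. Library 12 of Tau-S199E stands farthest from Tau-WT of its construct in 36 of the 40 rows, and rows of both directions occur in every role.

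Tau-S199E was set against Tau-WT to see how the genes respond to the phosphorylation mimic on its own. Of the 40 members, 23 rose and 15 fell, so 38 were called (95%) at an adjusted p under 0.05 in an ordinary linear model fitted with limma. Of all 1676 genes, 90.0% were called, 48.3% higher and 41.8% lower, in a table that the authors had selected by a contrast its header does not name. The share of members called is near this background. The median size of the difference was 2.04 SD units among members and 1.99 among all 1676 genes. The libraries of Tau-S199E and Tau-WT did not overlap in 38 of 40 members, against 94.2% of the table. Of the members, 62.5% had a positive difference, against 52.9% of all genes.

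Among the 8 members of the small subunit of the mitochondrial ribosome, which decodes the messenger RNA, 6 rose, 1 fell and 1 was not called. Without library 12 the same group had 4 that rose, 1 that fell and 3 that were not called, MRPS22 and MRPS23 having lost their call. The name rule does not take in DAP3 and PTCD3, which also encode small-subunit proteins of the table; DAP3 rose and PTCD3 fell, as given with the assembly genes. MRPS34, a mitochondria-specific protein of that subunit at chr16:1771890-1773155 (minus strand, GRCh38), had standardised values of 1.2, 1.51 and 1.51 in Tau-S199E, -0.28, 0.00 and -0.34 in Tau-K174Q, -0.51, 0.31 and 0.15 in Tau-K174Q-S199E, and -1.31, -1.44 and -0.81 in Tau-WT. All 3 Tau-S199E libraries were above all others, and the Tau-WT libraries were below all others. MRPS34 rose by 2.59 ± 0.25 SD units with Tau-S199E (here and below ± SE for a difference; adjusted p = 0.00677), the largest rise among the members. AURKAIP1, another protein of the small subunit that also binds the kinase Aurora A, at chr1:1373730-1375495 (minus strand), had 1.03, 1.37 and 1.94 in Tau-S199E, -0.32, -0.41 and -0.19 in Tau-K174Q, -0.10, 0.19 and -0.27 in Tau-K174Q-S199E, and -0.82, -1.57 and -0.86 in Tau-WT. The Tau-S199E libraries again formed the top and the Tau-WT libraries the bottom, with the other constructs between them and no overlap. AURKAIP1 rose by 2.53 ± 0.28 SD units (adjusted p = 0.00677).

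Among the other small-subunit genes, MRPS5 and MRPS11, which have bacterial counterparts, rose by 2.10 ± 0.59 and 1.75 ± 0.45 SD units. MRPS22 and MRPS23, which are specific to mitochondria, rose by 2.03 ± 0.57 and 1.78 ± 0.61. MRPS14 averaged 0.95 ± 1.11 in Tau-S199E and -0.54 ± 0.68 in Tau-WT (SD, n = 3 each), its libraries overlapped, and its difference of 1.49 was not called (adjusted p = 0.0501 from the limma fit). MRPS5 shows how much 1 library can weigh: its Tau-S199E values were 0.23, 0.64 and 2.56, the highest in library 12, against -1.36, -0.53 and -0.97 in Tau-WT.

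MRPS18B was the small-subunit member that fell. It is a human relative of the bacterial protein S18, and lies at chr6:30617709-30626395 (plus strand). Its standardised values were -1.25, -0.20 and -1.97 in Tau-S199E, -0.43, -0.01 and -0.02 in Tau-K174Q, 1.0, 0.24 and -0.71 in Tau-K174Q-S199E, and 1.01, 1.19 and 1.17 in Tau-WT. The Tau-WT libraries were above every other library, while Tau-S199E overlapped both other constructs. MRPS18B fell by 2.26 SD units (SE 0.51, adjusted p = 0.0104). Its relative MRPS18A, which sits in the large subunit, moved the same way with all libraries in the fit. MRPS18A averaged -0.77 ± 0.35 in Tau-S199E and 1.08 ± 0.56 in Tau-WT (SD, n = 3 each), and fell by 1.85 SD units (SE 0.59, adjusted p = 0.0219). In the limma fit it was not called without library 12 (adjusted p = 0.0709) or without library 2.

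The large subunit, which forms peptide bonds and holds the exit tunnel, was split: 9 of its 15 members rose and 6 fell, and 4 rose and 3 fell without library 12. MRPL12, a protein of the ribosomal stalk that also binds the mitochondrial RNA polymerase, lies at chr17:81703357-81707526 (plus strand). It had -1.19, -0.72 and -2.27 SD units in Tau-S199E, -0.28, -0.13 and 0.40 in Tau-K174Q, 0.72, 0.48 and 0.06 in Tau-K174Q-S199E, and 1.12, 1.06 and 0.74 in Tau-WT. The Tau-S199E libraries were the lowest 3 of the 12 and the Tau-WT libraries the highest 3. MRPL12 fell by 2.36 SD units (SE 0.39, adjusted p = 0.00968), the largest fall among the members. GENCODE places another gene, AC139530.2, over its 3′ end on the same strand, and how the authors counted such reads is not stated.

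MRPL11, a protein at the base of the stalk, lies at chr11:66435075-66466738 (minus strand). Its values were -0.77, -0.83 and -2.0 in Tau-S199E, -0.12, -0.09 and 0.20 in Tau-K174Q, 1.12, -0.20 and -0.69 in Tau-K174Q-S199E, and 1.06, 1.35 and 0.97 in Tau-WT. Tau-S199E was below every other library and Tau-WT overlapped only library 16 of Tau-K174Q-S199E. MRPL11 fell by 2.33 SD units (SE 0.49, adjusted p = 0.01). MRPL23 and MRPL27, which like MRPL11 have bacterial counterparts, fell with differences of -2.14 and -1.70 SD units, and MRPL28 with -1.69.

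The genes of the large subunit that rose included MRPL36 (2.29 ± 0.48 SD units), MRPL34 (2.20 ± 0.51) and MRPL33 (2.10 ± 0.56), which encode some of the smallest ribosomal proteins. MRPL58, a ribosomal protein that can release peptides from stalled ribosomes, rose by 2.10 ± 0.45 SD units. MRPL47, MRPL20, MRPL39 and MRPL45 rose by 1.92, 1.89, 1.75 and 1.63 SD units, and MRPL45 lies near the exit tunnel and helps to anchor the ribosome to the inner membrane. The annotated 3′ ends of MRPL33, MRPL34 and MRPL47 lie within the bounds of BABAM2, ABHD8 and ACTL6A. Neither the strand setting nor the counting of reads in such overlaps is stated, so reads of these pairs cannot be told apart.

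MRPL13 and MRPL28 are the members with the extreme fold changes in the authors' deposited table, -3.18 and 2.82 on the log2 scale. Their signs are opposite to those of the Tau-S199E minus Tau-WT differences, as in every gene of the table, and the contrast behind them is not named. MRPL13, a large-subunit protein with a bacterial counterpart, had standardised values of 0.52, 0.26 and 1.09 in Tau-S199E, 0.78, 0.77 and 0.63 in Tau-K174Q, -0.18, -1.21 and 0.91 in Tau-K174Q-S199E, and -2.09, -0.92 and -0.57 in Tau-WT. Tau-K174Q lay within the range of Tau-S199E, above Tau-WT, and Tau-K174Q-S199E ran from the range of Tau-WT into that of Tau-S199E. MRPL13 rose by 1.82 SD units with Tau-S199E (SE 0.57, adjusted p = 0.0204), but was not called without library 12 (1.59, adjusted p = 0.068) or without library 1 (1.37, adjusted p = 0.059). MRPL28 had -0.82, -0.94 and -1.41 in Tau-S199E, -0.21, -0.37 and -0.22 in Tau-K174Q, 1.31, 1.32 and -0.58 in Tau-K174Q-S199E, and 1.73, 0.56 and -0.38 in Tau-WT. Its Tau-WT libraries spread over most of its range, and library 3 of Tau-WT lay beside Tau-K174Q. The fall of MRPL28, a difference of -1.69 SD units (adjusted p = 0.0348), was not called without library 1, 2, 10, 11 or 12.

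In the TOM complex of the outer membrane, 3 of 4 members rose and 1 fell, but TOMM20 alone was called without library 12. TOMM20, the receptor for precursors with an N-terminal presequence, lies at chr1:235109336-235128936 (minus strand). It had 0.88, 1.01 and 1.57 SD units in Tau-S199E, 0.59, 0.33 and -0.12 in Tau-K174Q, -0.32, -0.30 and 0.52 in Tau-K174Q-S199E, and -1.45, -1.27 and -1.44 in Tau-WT. The Tau-WT libraries lay within a narrow band under all others and the Tau-S199E libraries above all others. TOMM20 rose by 2.54 ± 0.29 SD units (adjusted p = 0.00677). TOMM22, the central receptor, rose by 1.91 ± 0.54, and TOMM5, a small subunit of the complex, by 1.76 ± 0.60. TOMM6, another small subunit, averaged -1.17 ± 0.48 in Tau-S199E and 0.88 ± 0.45 in Tau-WT (SD, n = 3 each) and fell by 2.05 SD units (SE 0.60). Subunits of the same complex thus moved in opposite directions with all libraries in the fit. GENCODE annotates AL365205.1 and USP49 over the 3′ end of TOMM6, so its value is uncertain.

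**Figure D2:**
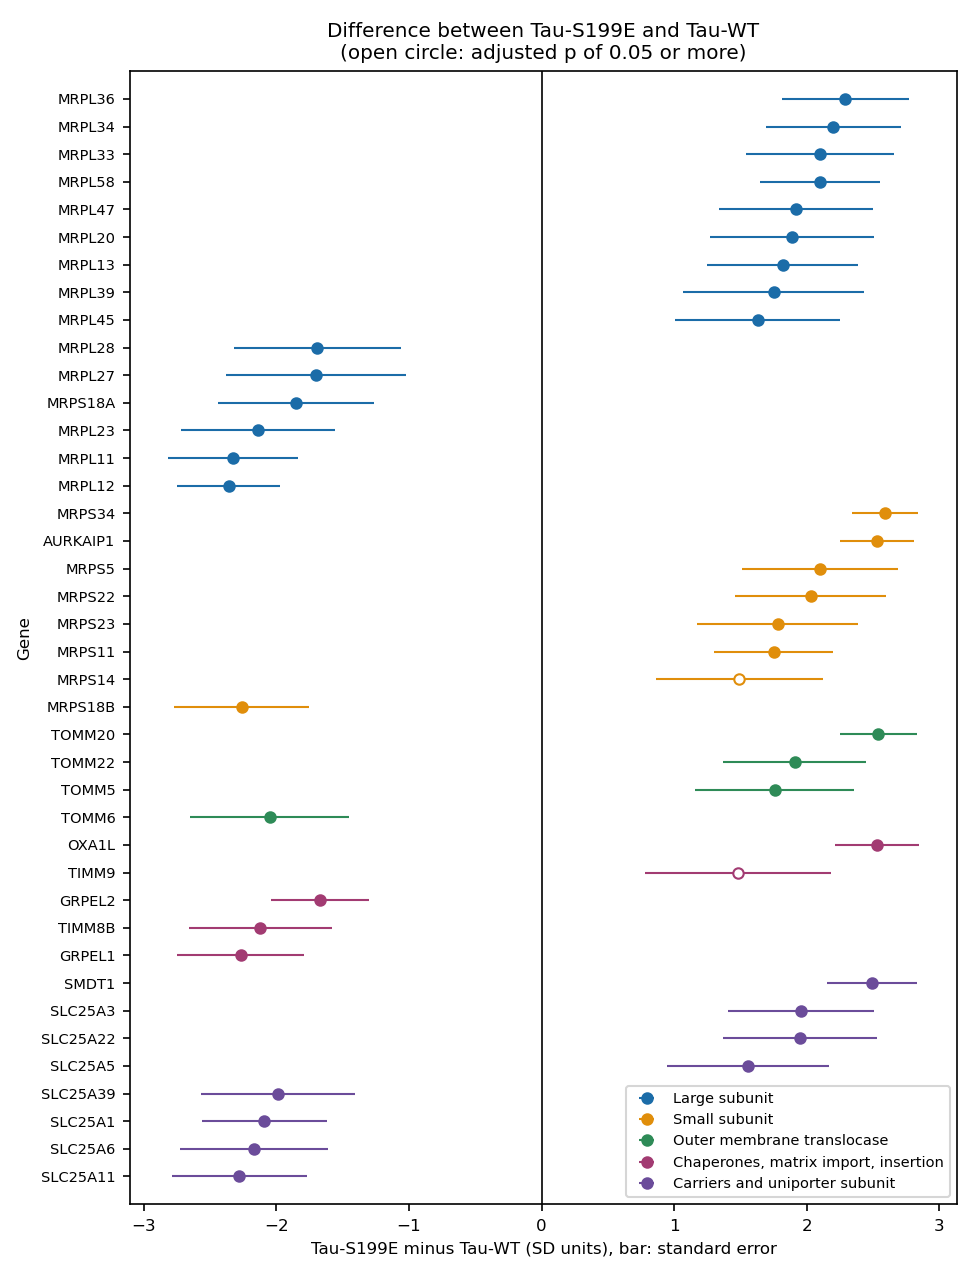
Difference between Tau-S199E and Tau-WT (horizontal axis, SD units of each gene) for the 40 members, with its standard error, by role; open circles mark the members that were not called. Positive and negative differences occur in every role, with 1 negative member in the small subunit and 1 in the outer membrane translocase.

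In the group that serves the intermembrane space, the matrix and insertion, 1 of 5 members rose and 3 fell, and these counts were the same without library 12. OXA1L, the insertase of the inner membrane to which mitochondrial ribosomes bind, lies at chr14:22766522-22773041 (plus strand). Its values were 1.62, 1.17 and 1.30 in Tau-S199E, 0.34, -0.13 and -0.84 in Tau-K174Q, -0.32, 0.18 and 0.17 in Tau-K174Q-S199E, and -0.93, -1.56 and -1.01 in Tau-WT. The Tau-S199E libraries were the highest 3 and the Tau-WT libraries the lowest 3, and here library 10, not library 12, was the highest. OXA1L rose by 2.53 ± 0.32 SD units (adjusted p = 0.00687), and by 2.56 without library 12.

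GRPEL1 and GRPEL2 encode the nucleotide exchange factors of HSPA9, the chaperone of the import motor, and both fell. GRPEL1, at chr4:7058906-7068197 (minus strand), had -0.98, -0.38 and -1.64 in Tau-S199E, -0.48, -0.39 and -0.24 in Tau-K174Q, 0.29, 0.72 and -0.71 in Tau-K174Q-S199E, and 0.58, 1.87 and 1.36 in Tau-WT. Only library 17 of Tau-K174Q-S199E reached the range of Tau-WT. GRPEL1 fell by 2.27 SD units (SE 0.48, adjusted p = 0.01). GRPEL2 fell by 1.67 SD units (SE 0.37, adjusted p = 0.0103), and its mean was -0.47 ± 0.17 in Tau-S199E, -1.13 ± 0.69 in Tau-K174Q, 0.41 ± 0.52 in Tau-K174Q-S199E and 1.2 ± 0.22 in Tau-WT (SD, n = 3 each). TIMM8B, a small TIM chaperone, fell by 2.12 SD units (SE 0.54, adjusted p = 0.0125). TIMM9, a small TIM chaperone of another complex, averaged 0.69 ± 1.44 in Tau-S199E and -0.80 ± 0.13 in Tau-WT (SD, n = 3 each), and its difference of 1.48 was not called (adjusted p = 0.0699).

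Among the carriers and the uniporter subunit, 4 of 8 rose and 4 fell, against 1 and 3 without library 12. SMDT1, which encodes EMRE, the subunit that joins the calcium pore MCU to its gatekeepers, lies at chr22:42079691-42084284 (plus strand). It had 1.14, 1.12 and 1.93 SD units in Tau-S199E, 0.35, -0.69 and 0.07 in Tau-K174Q, -0.34, -0.50 and 0.18 in Tau-K174Q-S199E, and -1.35, -1.05 and -0.89 in Tau-WT. The constructs fell into 3 bands, with Tau-K174Q and Tau-K174Q-S199E sharing the middle. SMDT1 rose by 2.49 ± 0.34 SD units (adjusted p = 0.00812). SLC25A3, the phosphate carrier, rose by 1.96 ± 0.55, and SLC25A22, a glutamate carrier, by 1.95 ± 0.58.

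SLC25A11, the oxoglutarate carrier, lies at chr17:4937130-4940251 (minus strand). It had -1.0, -0.68 and -1.74 in Tau-S199E, -0.13, -0.42 and 0.11 in Tau-K174Q, 1.28, 0.02 and -0.86 in Tau-K174Q-S199E, and 1.34, 1.10 and 0.98 in Tau-WT. The Tau-K174Q-S199E libraries ran from the range of Tau-S199E to that of Tau-WT. SLC25A11 fell by 2.28 SD units (SE 0.51, adjusted p = 0.0104). SLC25A1, the citrate carrier, and SLC25A39, a carrier for glutathione, fell by 2.09 and 1.99 SD units.

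SLC25A5 and SLC25A6 encode closely related ADP/ATP carriers and moved in opposite directions. SLC25A5 had 0.23, 0.00 and 1.32 SD units in Tau-S199E, 1.03, 0.72 and 0.77 in Tau-K174Q, -0.38, -1.46 and 0.93 in Tau-K174Q-S199E, and -1.65, -0.93 and -0.57 in Tau-WT. SLC25A6 had -1.39, -0.22 and -1.73 in Tau-S199E, -0.44, -0.18 and 0.23 in Tau-K174Q, 1.11, 0.31 and -0.87 in Tau-K174Q-S199E, and 0.64, 1.11 and 1.43 in Tau-WT. In both genes Tau-S199E and Tau-WT did not overlap. SLC25A5 rose by 1.56 SD units (SE 0.61, adjusted p = 0.0397) and SLC25A6 fell by 2.17 (SE 0.56, adjusted p = 0.0125). Without library 12 the rise of SLC25A5 was 1.16 and not called (adjusted p = 0.129), whereas the fall of SLC25A6 was 1.87 (adjusted p = 0.045). GENCODE names 9 pseudogenes after SLC25A5 and 6 after SLC25A6, and how reads shared with such copies were counted is not given, so both values are uncertain.

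**Figure D3:**
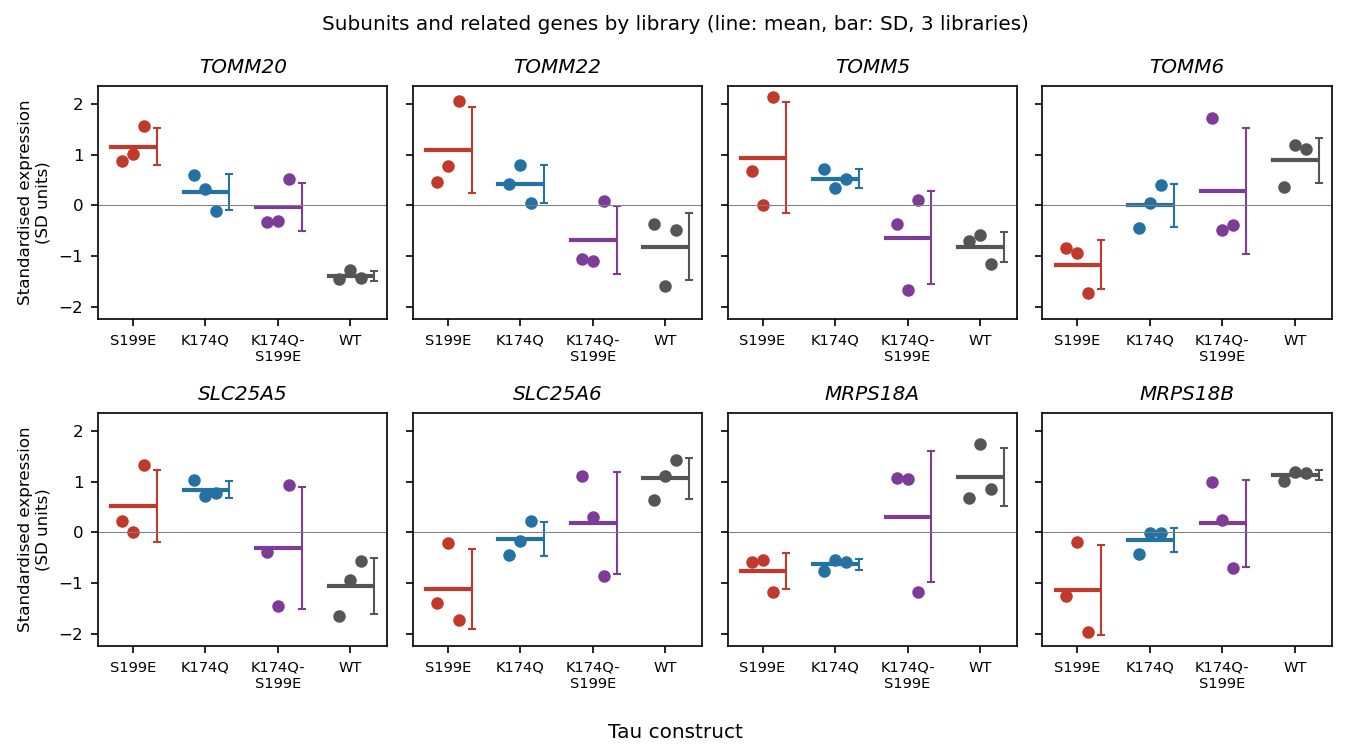
Standardised expression by library (vertical axis, SD units of each gene) of 4 TOM subunits and 2 pairs of related genes, with points for libraries, a line for the mean and a bar for the SD of 3 libraries. TOMM6 is low with Tau-S199E where TOMM20, TOMM22 and TOMM5 are high, SLC25A5 is high where SLC25A6 is low, and MRPS18A and MRPS18B are both low.

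The result leaned on library 12. It was the Tau-S199E library farthest from Tau-WT in 36 of 40 members, and its values ran from -2.27 to 2.56. Without it the median size of the member differences was 1.65 SD units (0.76 to 2.56), against 2.04 (1.48 to 2.59) with all libraries. The number of members called fell to 21, of which 11 rose and 10 fell, while 49.7% of the table was called. The 17 calls that were lost were those of TOMM22, TOMM5, TOMM6, MRPS22, MRPS23, SLC25A3, SLC25A5, SLC25A22, SLC25A39, MRPS18A, MRPL13, MRPL20, MRPL27, MRPL28, MRPL39, MRPL45 and MRPL47. Among those that kept theirs were TOMM20, MRPS34, AURKAIP1, OXA1L, SMDT1, GRPEL1, GRPEL2, TIMM8B, MRPL11 and MRPL12. No member changed sign in any alternative that was run (0 of 40). Sign changes were not counted over the whole table, so this does not mark out the members.

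**Figure D4:**
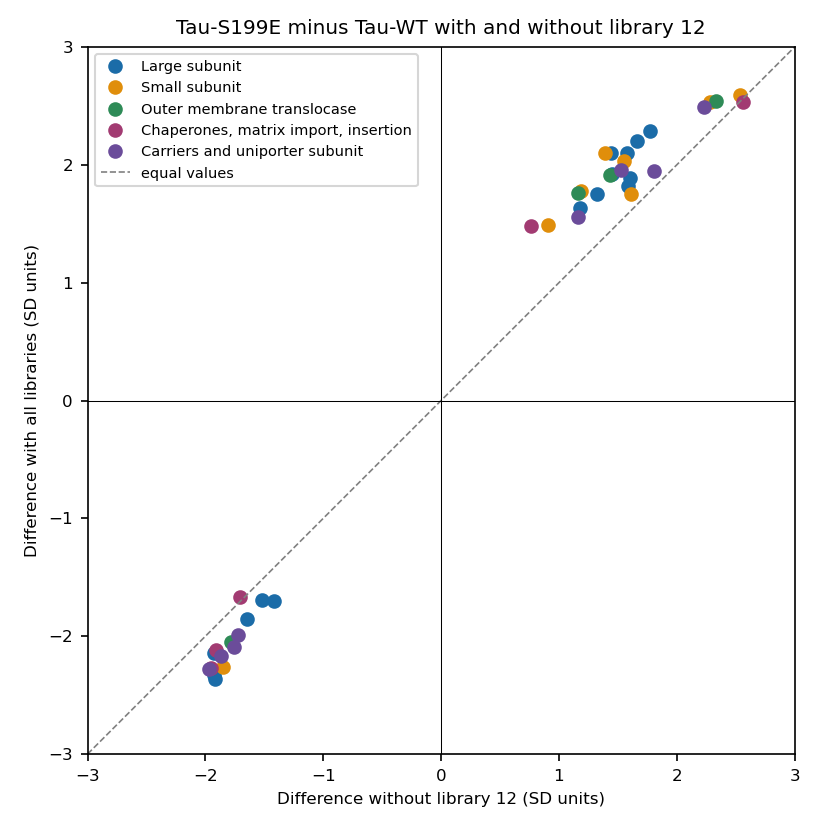
Difference between Tau-S199E and Tau-WT in SD units with all libraries (vertical axis) against the same without library 12 (horizontal axis), 1 point a member. All 40 members keep their sign, and most lie nearer to 0 without library 12, where TIMM9 is at 0.76 and OXA1L at 2.56.

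The acetylation mimic alone, Tau-K174Q against Tau-WT, called no member (0 of 40; 0% of the table) in the ordinary model. At an unadjusted p under 0.05 there were 25 members (51.9% of the table), and limma's moderated test called 22 (59.9% of the table). The libraries did not overlap in 33 members, against 80.7% of the table. The differences were positive in 25 members and negative in 15, and the Tau-WT libraries are shared with the comparison above, so the values are not independent of it. The lowest adjusted p among members was 0.066. Without library 18, a library of another construct that enters only the residual variance, 17 members were called (40.3% of the table), and without libraries 12 and 18 together 30 (58.5%). Without library 16 of the same construct 3 were called (2.86% of the table): GRPEL2, MRPS34 and TOMM20.

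The mean of Tau-K174Q lay between Tau-S199E and Tau-WT in 35 members, against 84.4% of the table. In the other 5 members it lay beyond Tau-S199E: GRPEL2, MRPS11, MRPL13, MRPL45 and SLC25A5. GRPEL2 had -0.67, -0.35 and -0.41 SD units in Tau-S199E, -0.99, -1.89 and -0.52 in Tau-K174Q, 0.80, 0.60 and -0.19 in Tau-K174Q-S199E, and 1.01, 1.44 and 1.16 in Tau-WT. Every library of Tau-S199E and Tau-K174Q was under the other constructs, and library 5 of Tau-K174Q was the lowest. The Tau-K174Q minus Tau-WT difference in GRPEL2 was -2.33 SD units (adjusted p = 0.066), the largest of the members by size. MRPS11 had 1.27, 0.50 and 1.09 SD units with Tau-K174Q, against -1.03, -1.56 and -0.57 in Tau-WT, a difference of 2.0 (adjusted p = 0.066).

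The single substitutions compared directly, Tau-K174Q against Tau-S199E, called no member (0 of 40; 0.0597% of the table). At an unadjusted p under 0.05 there were 9 members (16.1% of the table), and the moderated test called 0. The libraries did not overlap in 18 members, against 36.2% of the table. AURKAIP1 and MRPS34 had the lowest adjusted p among members, 0.0936 in both, with differences of -1.75 and -1.61 SD units. Without library 16 of Tau-K174Q-S199E, 1 member, MRPS34, was called (0.179% of the table).

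For the construct with both substitutions, Tau-K174Q-S199E against Tau-WT called no member (0 of 40; 0% of the table). At an unadjusted p under 0.05 there were 6 members (7.58% of the table), TOMM20, MRPS34, AURKAIP1, OXA1L, SMDT1 and GRPEL1, and the moderated test called 0. The libraries did not overlap in 8 members, against 11.6% of the table. These were TOMM20, MRPS34, AURKAIP1, OXA1L, SMDT1, MRPL12, MRPS18B and GRPEL2, with differences of 1.35, 1.17, 1.02, 1.18, 0.88, -0.55, -0.95 and -0.79 SD units. The lowest adjusted p was 0.533.

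Adding K174Q to S199E, Tau-K174Q-S199E against Tau-S199E, gave no called member (0 of 40; 0.119% of the table). At an unadjusted p under 0.05 there were 28 members (56.4% of the table), and the moderated test called 29 (68.8% of the table), of which 10 rose and 19 fell. The libraries did not overlap in 20 members, against 43.4% of the table. MRPL58 had the largest negative difference, -2.04 SD units (adjusted p = 0.0644), and SLC25A1 the largest positive one, 1.98 (adjusted p = 0.0644). SLC25A1 averaged 0.68 ± 0.79 in Tau-K174Q-S199E and -1.31 ± 0.58 in Tau-S199E (SD, n = 3 each). The mean of Tau-K174Q-S199E lay between those of Tau-S199E and Tau-WT in 38 members, against 91.8% of the table, and the exceptions were MRPS14 and MRPL28. In the median member it lay 65.6% of the way from Tau-S199E to Tau-WT, against 68.3% over all genes.

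Library 18 weighed on this comparison. It was the Tau-K174Q-S199E library nearest to Tau-S199E in 34 members, and the median SD of members over libraries was 0.82 in that construct. Without it 33 members were called, 14 higher and 19 lower with Tau-K174Q-S199E, while 78.5% of the table was called. Without libraries 12 and 18 together 19 were called (43.6% of the table). SLC25A11, for example, had 1.28 and 0.02 SD units in libraries 16 and 17 but -0.86 in library 18, against -1.0, -0.68 and -1.74 in Tau-S199E.

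Adding S199E to K174Q, Tau-K174Q-S199E against Tau-K174Q, called no member (0 of 40; 0% of the table). At an unadjusted p under 0.05 there were 2 members, GRPEL2 and MRPS11 (8.23% of the table), and the moderated test called 0. The libraries did not overlap in 5 members, against 11.2% of the table. MRPS11, MRPS14, TOMM5 and TIMM9 were lower with Tau-K174Q-S199E than with Tau-K174Q in every library, with mean differences of -1.54, -1.26, -1.16 and -1.10 SD units, and GRPEL2 was higher in every library, with a difference of 1.54. Without library 18, 2 members were called, GRPEL2 and MRPS18A (8.47% of the table), and without libraries 12 and 18 together 9 (26.9%).

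The interaction asks whether K174Q acts differently with and without S199E, coded as the effect of K174Q on S199E tau (Tau-K174Q-S199E minus Tau-S199E) less its effect on wild-type tau (Tau-K174Q minus Tau-WT). It was called in 40 of 40 members, 15 positive and 25 negative, and in 97.0% of the table. The share among members is read against a table whose genes had all been selected: 100% of the 1676 genes have an adjusted p under 0.05 in the authors' deposited table, and its header does not name the contrast. The sign of the interaction was that of the deposited fold change in all 40 members, so these calls may restate that selection. GRPEL2 had the largest positive interaction, 3.21 SD units (adjusted p = 0.0182), and MRPS11 the largest negative one, -3.29 (adjusted p = 0.0182). In both genes the mean of the construct with both substitutions lay nearer to that of Tau-WT than the mean of either single substitution. Both were picked by the size of this term, which favours such a pattern. How many other members or genes of the table share it was not counted. MRPS11 averaged 0.69 ± 0.85 in Tau-S199E, 0.95 ± 0.40 in Tau-K174Q, -0.59 ± 0.34 in Tau-K174Q-S199E and -1.05 ± 0.49 in Tau-WT (SD, n = 3 each).

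The authors' deposited table gives the only fold changes. Their sizes ran from 0.61 to 3.18 on the log2 scale among members, with a median of 1.31, against 1.36 over all genes. In the authors' deposited table the sign was negative for the 25 members higher with Tau-S199E than with Tau-WT and positive for the 15 lower. Over the whole table it was likewise negative for all 886 genes higher with Tau-S199E and positive for all 790 lower. A negative deposited fold change thus goes with a rise with Tau-S199E, not against it. The interaction described above had the sign of the deposited fold change in every member. Over the whole table it was positive in 790 genes and negative in 886, the same split as the deposited fold changes. Which contrast the authors used was not tested. The smallest adjusted p of a member in the authors' deposited table was 4.75e-05, for TOMM20 (log2 fold change -1.35). In that deposited table the large-subunit members had a median size of 1.79 and the small-subunit members of 0.93. Among the members, MRPS34 had the largest standardised rise with Tau-S199E but the smallest log2 fold change by size in the authors' deposited table, -0.61. Whether both refer to the same contrast is not stated. The authors' 4 clusters held 11, 4, 8 and 17 members.

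**Figure D5:**
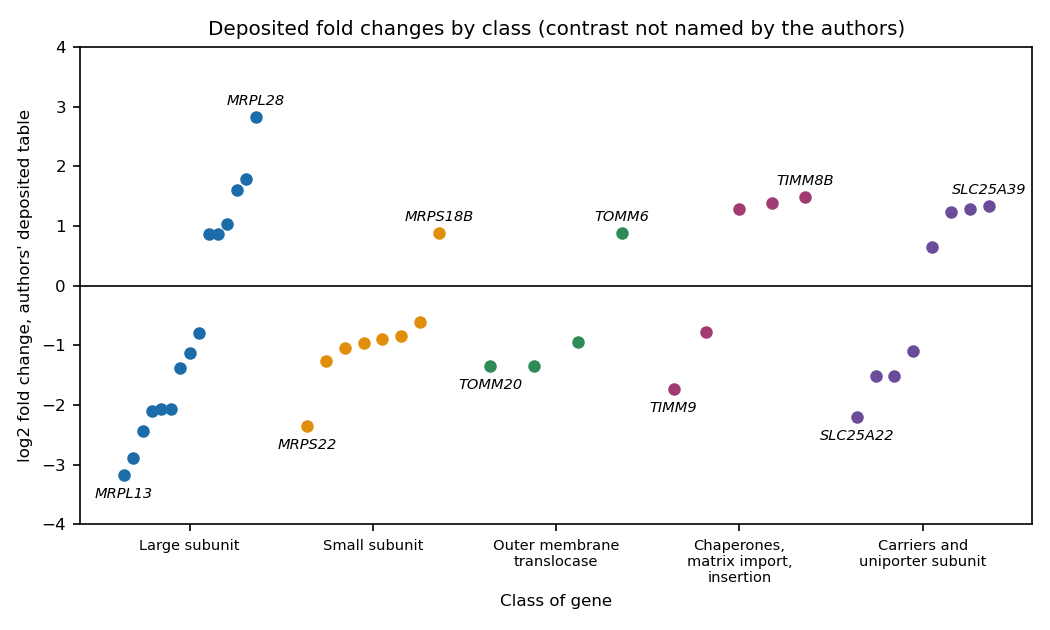
Log2 fold change in the authors' deposited table (vertical axis, contrast not named there) for the 40 members by role, with the extreme genes of each role named. Values run from -3.18 in MRPL13 to 2.82 in MRPL28, and every role holds both signs.

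Features of the transcripts were compared by direction, with no test. The GC content of the longest annotated transcript had a median of 46.9% among the 25 members higher with Tau-S199E than with Tau-WT and 57.3% among the 15 lower, against 47.7% and 51.5% for all genes of the table in those directions. The part of GC content in the result was not tested. The annotated 3′ end of 15 members lies within another gene, among them GRPEL2, TIMM8B and MRPS18A, under GRPEL2-AS1, NKAPD1 and RSPH9. Pseudogenes are named after 16 members, with 6 for TOMM22, 5 for SLC25A1 and 4 for TOMM20. Reads of such overlaps and copies could be split in ways the sources do not state. The members are spread over 18 chromosomes, with 7 of them on chromosome 17.

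Genes that work with the members were looked up by list. Of all 1676 genes, 90.0% were called with Tau-S199E against Tau-WT, 48.3% higher and 41.8% lower. The counts from these and the following lists are read against that background and do not mark out a list. Of 32 genes for assembly of the mitochondrial ribosome and modification of its RNA, 7 were analysed, and 5 rose and 2 fell with Tau-S199E against Tau-WT. NOA1, a GTPase of small-subunit assembly, rose by 2.35 ± 0.41 SD units, and METTL17 and MALSU1, factors of the small and the large subunit, rose by 2.12 ± 0.42 and 2.32 ± 0.47. DAP3, itself a protein of the small subunit, rose by 2.19 ± 0.47. MTG2, a GTPase of the large subunit, and PTCD3, another protein of the small subunit, fell, with differences of -2.09 and -1.72 (adjusted p = 0.01 and 0.0178). Of 17 translation factors 1 was analysed, and it rose: TSFM, the exchange factor of the elongation factor TUFM (2.08 ± 0.57). Among 20 mitochondrial tRNA synthetases 3 were analysed, and FARS2 and TARS2 rose while SARS2 fell. FASTK, which binds mitochondrial RNA, fell, and was the gene analysed of 23 for mitochondrial DNA and RNA synthesis (1 of 23).

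Of 28 further genes of import, sorting and folding, 8 were analysed, and 3 rose, 4 fell and MTX2 was not called. HSPE1 and HSPD1 encode the partner subunits of the matrix chaperonin, and they moved apart: HSPE1 averaged 1.24 ± 1.28 in Tau-S199E and -0.72 ± 0.31 in Tau-WT, and HSPD1 -1.31 ± 0.60 in Tau-S199E and 1.05 ± 0.73 in Tau-WT (SD, n = 3 each). Their differences were 1.96 ± 0.59 and -2.35 ± 0.45 SD units. In libraries 10, 11 and 12 of Tau-S199E, HSPE1 had 0.66, 0.35 and 2.70, and HSPD1 had -0.79, -1.17 and -1.96. Library 12 was thus the farthest from Tau-WT in both. PAM16, a subunit of the import motor, rose by 2.17 ± 0.50, and CHCHD2, a protein of the intermembrane space, had a difference of -2.32. Of 14 cytosolic chaperones and receptors 4 were analysed: DNAJA1 and HSPA1A rose, and HSP90AB1 and STIP1 fell. The protease LONP1 fell (1 of 16 analysed), as did DNM1L, the fission GTPase, while the porin VDAC2 rose (2 of 20 analysed). Among 17 regulators of mitochondrial biogenesis 3 were analysed: ESRRA, a nuclear receptor, rose, and CREBBP and TFE3 fell.

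Markers of the mesenchymal, substrate-adherent state of neuroblastoma cells moved in the same comparison. Of 18 such markers 4 were analysed, CD44, S100A6, SNAI2 and S100A10, and all 4 rose, against 48.3% of all 1676 genes. All 4 had their highest Tau-S199E value in library 12, and their calls without it are not given. Their summed standardised value ran from 2.10 to 8.0 in Tau-S199E, from 0.99 to 1.98 in Tau-K174Q, from -4.08 to 2.39 in Tau-K174Q-S199E and from -4.84 to -3.07 in Tau-WT. Their part in the differences of the members was not tested.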

How the data were processed

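The authors deposited 1 table of 1676 genes with 12 library columns. Its library values are a score made by the authors, in which every gene has been scaled to mean 0 and SD 1, as the values themselves show (largest absolute gene mean 5.7e-15). The authors' deposited table also gives a log2 fold change, an adjusted p-value and a cluster number, per the file headers, which do not name the contrast. STAR 2.5.3a, RSEM 1.2.31, DESeq2 and the build GRCh38 are named in the submitters' processing notes. Strand setting and gene filter are not stated.

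Standardising removes level, depth and fold size, so no count model, pseudocount or interval could be used. A model with a mean per construct over 12 libraries was fitted to each gene in limma 3.58.1 (R 4.3.3), with its ordinary residual variance, two-sided, with Benjamini-Hochberg adjustment over 1676 genes and a threshold of 0.05; the fit was tested on simulated data. Alternatives were moderated variances, subtracted library medians, the libraries of the constructs compared only, and leaving out libraries. Gene positions are from GENCODE v29. Roles, members and lists were chosen with earlier results of these data known. Values of all 12 libraries are given for the 5 largest rises and the 5 largest falls called with Tau-S199E, for the extreme deposited fold changes, and for OXA1L, AURKAIP1 and SMDT1; SLC25A5, SLC25A6 and GRPEL2 were added after their values were seen. Libraries are named by construct and library number: Tau-S199E 10, 11 and 12, Tau-K174Q 4, 5 and 6, Tau-K174Q-S199E 16, 17 and 18, and Tau-WT 1, 2 and 3. Values within a construct are given in that order.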

Additional observations from a re-analysis of the deposited data

Results flagged for a closer look

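The effect of K174Q differed with and without S199E in 40 members by the interaction term of the limma fit (adjusted p from 0.0182 to 0.038), in 97.0% of the table's genes. The table was selected by the authors, so this share does not mark out the members. The calls are not independent of that selection if it used the same contrast, which its header does not name. In all 40 members the interaction had the sign of the deposited fold change, and with moderated variances it was called in 100% of the table. The 40 calls may thus restate the selection and are not read as support for an effect. GRPEL2 had an interaction of 3.21 SD units and MRPS11 of -3.29.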

How the results depend on the processing

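For Tau-S199E against Tau-WT, 38 members were called. Shares in parentheses are of the whole table. Moderated variances gave 40 (98.4%), subtracted library medians 33 (81.7%), the libraries of these constructs alone 26 (72%) and leaving out libraries 12 and 18 together 34 (79.4%). Leaving out 1 library gave 21 (library 12, 49.7%) to 39 (library 11, 83.7%, and library 18, 93.8%). Under every alternative 18 members were called. The matching share of the table was not counted, so this number does not mark out the members. For Tau-K174Q against Tau-WT, 0 became 22 with moderated variances (59.9%), 24 with the libraries of these constructs alone (48.9%), 30 without libraries 12 and 18 together (58.5%), and 0 to 17 when 1 library was left out: 3 without library 16 (2.86%) and 17 without library 18 (40.3%). For Tau-K174Q-S199E against Tau-S199E, 0 became 29 with moderated variances (68.8%), 19 without libraries 12 and 18 together (43.6%), and 0 to 33 when 1 library was left out, 33 being without library 18 (78.5%). For Tau-K174Q-S199E against Tau-K174Q, 0 became 9 without libraries 12 and 18 together (26.9%) and 0 to 2 when 1 library was left out, 2 being without library 18 (8.47%). For Tau-K174Q against Tau-S199E, leaving out 1 library gave 0 to 1, 1 being without library 16 (0.179%). The cause was not tested. For Tau-K174Q-S199E against Tau-WT, the count was 0 in every alternative run. The interaction gave 33 (library 12, 77.4%, and library 16, 82.2%) to 40 (library 18, 97.1%) when 1 library was left out. It gave 40 with moderated variances (100%), 37 with subtracted medians (91.4%) and 38 without libraries 12 and 18 (93.3%).

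Of 192 alternative values of the 12 members named by rule, 183 stayed on their side of the threshold, 9 (MRPL13 and MRPL28) lost the call and 0 reversed. No paired analysis was possible because the columns carry a library number and not the replicate number of the labels. The depth is unknown, so what it limits cannot be given.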
